A study of Homo sapiens with 12 samples.

Results

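The genes described here are 10 genes of the endoplasmic reticulum (ER) and its stress response: HSPA5, HSP90B1, CALR, PDIA4, DNAJB9, DNAJC3, SDF2L1, HERPUD1, XBP1 and MANF. They were taken by symbol from a table of 10940 genes, all 10 were present, and all 10 passed the filter on low counts. The counts come from HepG2, a human hepatocellular tumour line labelled wild type. Cells seeded in EMEM (Eagle's minimum essential medium, in which the line was kept) were given 1 of 4 media after 24 h. These were EMEM itself, Plasmax (a medium modelled on human plasma), Plasmax prepared without trace elements (Plasmax-TE), and that medium with iron supplied again (Plasmax-TE+Fe). Every medium held 10% heat-inactivated fetal bovine serum, so serum metals were present in all of them, and it was renewed at 48 h before harvest at 96 h. Each medium had 3 libraries.

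Proteins that enter the secretory pathway fold in the ER, where HSPA5 (also called BiP) binds unfolded chains and DnaJ-type cochaperones set its ATPase cycle. When unfolded proteins build up, 3 membrane sensors, IRE1, PERK and ATF6, start the unfolded protein response, which raises chaperones, removes misfolded proteins by ER-associated degradation and lowers translation. Liver cells make large amounts of secreted protein, so they keep a large set of these chaperones even when unstressed.

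Levels are given as CPM, the count of a gene divided by the library's total count and multiplied by 1e+06, as mean ± SD with n = 3 libraries in each medium. Total counts ran from 1562125 to 2384090, so 1 count was worth 0.419 to 0.640 CPM. The libraries read the 3′ end of transcripts, and levels are compared here only within a gene. Whether replicate libraries stem from separate cultures is not stated in the labels, so p-values here reflect only how far these libraries scatter, and that scatter may be technical. Of 7 liver markers 7 were in the table, ALB at 3846 to 19590 CPM, and of 6 markers of blood, fibroblast and endothelial cells 2 were, CD68 and COL1A1, at up to 6.49 and 8.36 CPM. Libraries 87 (the first Plasmax-TE replicate) and 88 (the second with iron) stood apart from the others in these data, and results are given with and without them where this matters. In bulk RNA such as this, fewer cells of a kind and less RNA per cell cannot be told apart.

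The promoters of many genes of this family carry short elements through which ATF6 and XBP1 act together with NF-Y, and they are shown here as a description of the sequence. The genes were picked as members of this family, so matches in them are no independent support for the choice. The shares of all windows below are given for scale only. RefSeq windows of GRCh38.p14 from 250 bases before to 50 after the transcript start were available for all 10 genes (12 windows). They were searched on both strands for the ER stress response element ERSE (CCAAT, 9 bases of any kind, then CCACG), for ERSE-II (ATTGG, 1 base of any kind, then CCACG) and for the unfolded protein response element UPRE (TGACGTGG). ERSE was found in 4 of the 10 genes and in 4 of their 12 windows, against 0.0769% of the 35116 windows of all genes. HSP90B1 held 2 copies that do not overlap. The matches follow in the motif's own direction, with its fixed bases in capitals.
HSPA5, 66 bases before the start: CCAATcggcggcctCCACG
HSP90B1, 194 bases before the start: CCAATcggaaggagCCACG
HSP90B1, 89 bases before the start: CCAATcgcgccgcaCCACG
CALR, 225 bases before the start: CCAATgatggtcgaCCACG
XBP1, 52 bases before the start: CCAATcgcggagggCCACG

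ERSE-II was found in 2 of the 10 genes and in 2 of their 12 windows, against 0.0541% of all windows, and these matches are shown in the same way.
SDF2L1, 188 bases before the start: ATTGGtCCACG
HERPUD1, 117 bases before the start: ATTGGgCCACG

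UPRE was in 0 of the 10 genes and in 0.729% of all windows. PDIA4, DNAJB9, DNAJC3 and MANF held none of the 3 motifs, which says only that these letters are not in these windows. A match describes the sequence and does not show binding. Whole windows are shown for HSPA5, the master chaperone, and for SDF2L1 and DNAJB9, the 2 genes whose level differed between media in the tests below, each on its gene's strand, with the fixed bases of a match in capitals.
HSPA5, chr9:125241294-125241593, minus strand: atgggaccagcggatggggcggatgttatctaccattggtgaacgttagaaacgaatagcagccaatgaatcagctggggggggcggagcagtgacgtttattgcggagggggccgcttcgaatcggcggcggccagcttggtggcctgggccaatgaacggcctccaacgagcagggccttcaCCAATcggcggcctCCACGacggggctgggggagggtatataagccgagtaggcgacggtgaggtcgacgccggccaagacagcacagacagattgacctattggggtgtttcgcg
SDF2L1, chr22:21642052-21642351, plus strand: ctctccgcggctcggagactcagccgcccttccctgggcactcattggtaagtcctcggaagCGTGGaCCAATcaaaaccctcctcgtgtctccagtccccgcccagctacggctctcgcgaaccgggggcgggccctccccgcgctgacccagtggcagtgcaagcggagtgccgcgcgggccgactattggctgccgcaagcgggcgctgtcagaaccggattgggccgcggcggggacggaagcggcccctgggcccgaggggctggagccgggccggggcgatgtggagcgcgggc
DNAJB9, chr7:108569624-108569923, plus strand: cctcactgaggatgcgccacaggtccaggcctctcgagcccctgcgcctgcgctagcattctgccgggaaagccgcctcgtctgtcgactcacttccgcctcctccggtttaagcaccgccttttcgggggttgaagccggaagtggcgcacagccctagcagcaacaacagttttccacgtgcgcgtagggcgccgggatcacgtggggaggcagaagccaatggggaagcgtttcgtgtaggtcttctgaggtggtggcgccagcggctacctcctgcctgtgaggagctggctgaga

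Most of the 10 genes kept to a narrow range across the 4 media, and DNAJB9 was the exception. DNAJB9 (ENSG00000128590), a DnaJ cochaperone of HSPA5 that also holds IRE1 in check, stood at about the same level in EMEM, Plasmax-TE and Plasmax-TE+Fe and lower in complete Plasmax. SDF2L1, a luminal partner of HSPA5, was higher in Plasmax than in EMEM. In the test of the 4 media together DNAJB9 alone of the 10 passed (adjusted p = 0.010), where 18.0% of the 10459 genes tested did so. SDF2L1 (adjusted p = 0.097) and HERPUD1 (adjusted p = 0.20) came next, and the adjusted p of the other 7 lay between 0.29 and 0.97. With Plasmax replicate 3 left out DNAJB9 no longer passed this test of the 4 media. All p-values come from quasi-likelihood tests in edgeR, adjusted by Benjamini-Hochberg over all genes tested, and log2 fold changes are given ± SE.

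**Figure D1:**
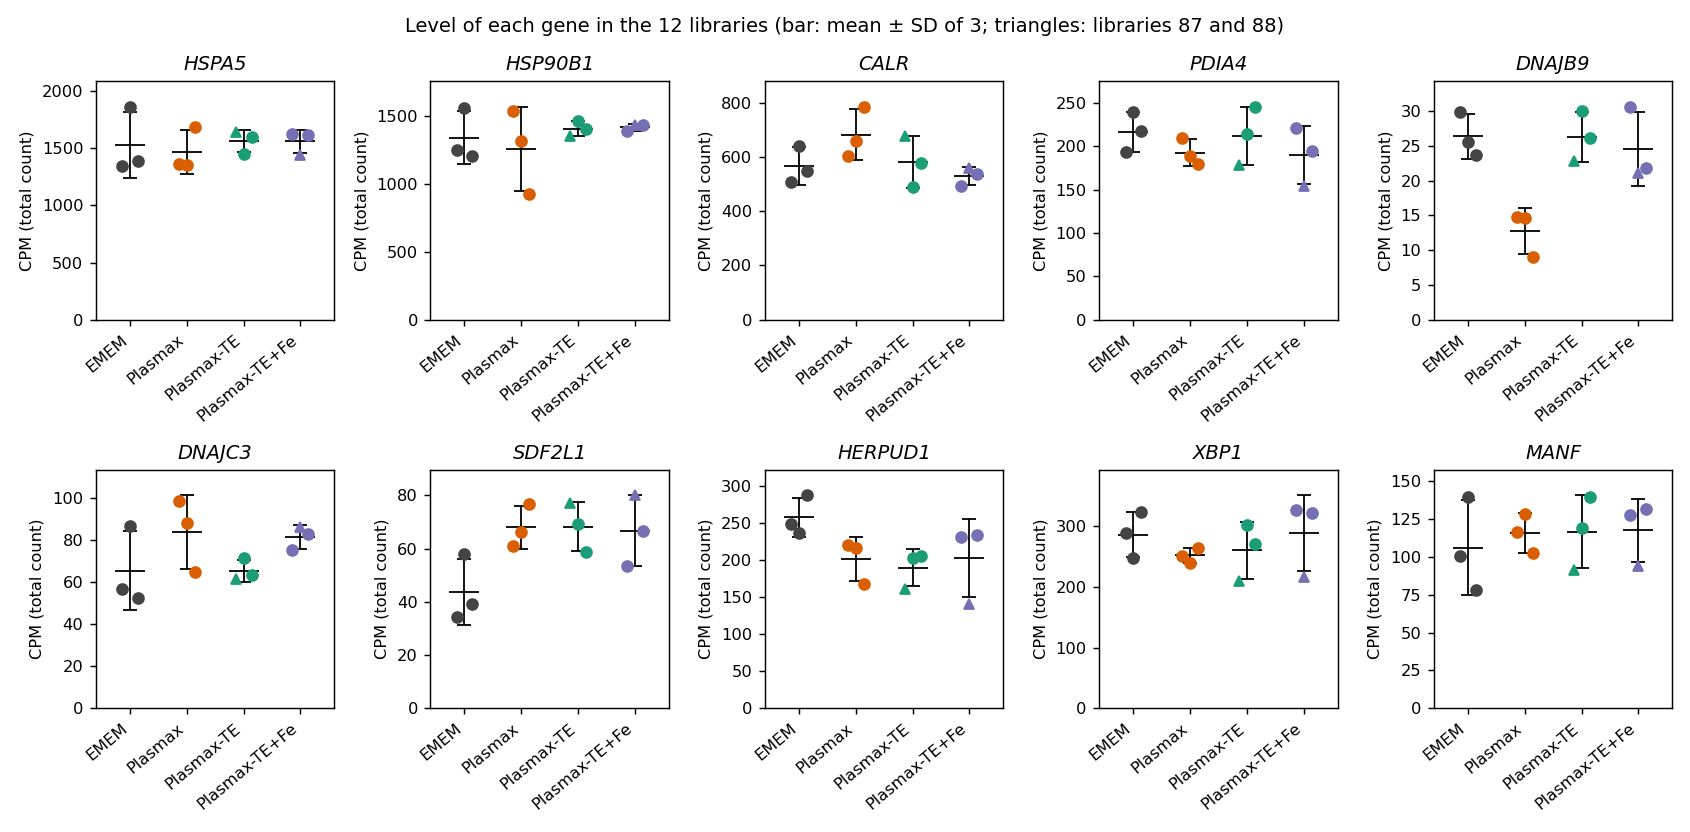
Level of each of the 10 genes in CPM (y axis, from 0) in the 12 libraries by medium (x axis), with the mean and SD of 3 libraries as a bar and libraries 87 and 88 as triangles. The 3 Plasmax libraries of DNAJB9 sit between 8.98 and 14.7 CPM, below all 9 others, while HSPA5 stays between 1343 and 1864 CPM throughout.

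HSPA5 (ENSG00000044574), the HSP70 of the ER lumen, was counted at 1343, 1864 and 1385 CPM in EMEM and at 1361, 1352 and 1687 CPM in Plasmax. It stood at 1641, 1451 and 1599 CPM in Plasmax-TE and at 1621, 1444 and 1619 CPM in Plasmax-TE+Fe. The libraries of every pair of media overlapped, and the highest of the 12 was EMEM replicate 2. By mean the order was Plasmax-TE (1564 ± 99.8 CPM), Plasmax-TE+Fe (1561 ± 102), EMEM (1531 ± 290) and Plasmax (1467 ± 191), and no neighbours in it differed beyond their spread. The 95% intervals of its log2 fold change in the 6 comparisons all lay between -0.42 and 0.41.

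HSP90B1 (GRP94), the HSP90 of the ER, ranged from 921 to 1559 CPM. Its lowest library was Plasmax replicate 3 at 921 CPM, against 1535 and 1310 CPM in the other Plasmax libraries, so the medium with the lowest mean (1255 ± 311 CPM) was also the one with the widest spread. In the media without the full set of trace elements it stood at 1403 ± 53.2 CPM (Plasmax-TE) and 1414 ± 26.7 CPM (Plasmax-TE+Fe), and EMEM lay at 1335 ± 195 CPM. No comparison passed, with intervals between -0.47 and 0.50. A pseudogene of its family, HSP90B2P, is listed separately in the table with 4 to 56 counts per library against 1999 to 3716 for HSP90B1, and how reads that fit both were counted is not stated.

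CALR, calreticulin, the calcium-binding lectin that helps glycoproteins fold, was highest in Plasmax (602, 659 and 786 CPM) and lowest in Plasmax-TE+Fe (494, 560 and 539 CPM). These 2 media did not overlap, yet the difference did not pass (-0.37 ± 0.15, adjusted p = 0.28 in edgeR). EMEM (566 ± 69.1 CPM) and Plasmax-TE (582 ± 95.2 CPM) lay between them. PDIA4 (ERp72), a protein disulfide isomerase, had its means within 190 and 217 CPM, in the order EMEM (217 ± 23.0), Plasmax-TE (212 ± 33.5), Plasmax (193 ± 15.8) and Plasmax-TE+Fe (190 ± 33.5). The intervals of PDIA4 in the 6 comparisons lay between -0.60 and 0.52, and those of CALR between -0.68 and 0.54.

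DNAJB9 was counted at 29.9, 25.6 and 23.7 CPM in EMEM and at 14.7, 14.6 and 8.98 CPM in Plasmax. It stood at 22.8, 30.1 and 26.2 CPM in Plasmax-TE and at 30.7, 21.1 and 21.9 CPM in Plasmax-TE+Fe. All 3 Plasmax libraries lay below every library of the other media, with 20 to 28 counts each against 39 to 73 in the others. DNAJB9 was the least abundant of the 10 in counts, so its counting error was the largest. In Plasmax it was 2.16-fold lower than in EMEM (log2 fold change -1.11 ± 0.25, 95% interval -1.63 to -0.58, adjusted p = 0.0035). It was higher in the medium without trace elements, by 1.08 ± 0.25 in Plasmax-TE against Plasmax (2.12-fold, interval 0.56 to 1.61, adjusted p = 0.0092).

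Both of these DNAJB9 results share the Plasmax libraries and are not independent. Each kept its direction and passed in all 22 alternatives tried, with log2 fold changes from -1.21 to -0.92 and from 0.89 to 1.20. Plasmax-TE+Fe against Plasmax gave 0.98 ± 0.25 and did not overlap, but missed the threshold (adjusted p = 0.067 in edgeR). With libraries 87 and 88 left out that comparison passed, at 1.11 ± 0.26 and adjusted p = 0.029. It also passed with the runs of consecutive library numbers as a block (0.98 ± 0.26, adjusted p = 0.037) and without Plasmax-TE replicate 1 (adjusted p = 0.048). Iron made no detectable difference to DNAJB9 in the medium without trace elements (-0.10 ± 0.23, interval -0.58 to 0.37, adjusted p = 0.94). Against EMEM the differences were -0.03 ± 0.23 for Plasmax-TE and -0.13 ± 0.23 for Plasmax-TE+Fe (adjusted p = 0.97 and 0.78).

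In the annotation at hand, exons of THAP5 and PNPLA8 on the opposite strand overlap DNAJB9, but none lies in its last 1000 bases, where these reads are expected. How strand was handled in the counting is not stated. THAP5 was counted at 15.4 ± 2.91 CPM in EMEM and 19.3 ± 4.28 CPM in Plasmax, and its difference did not pass (0.29 ± 0.24, adjusted p = 0.42). PNPLA8 gave 0.06 ± 0.22 in the same comparison (adjusted p = 0.87). An exon of C12orf73 on the opposite strand does lie in the last 1000 bases of HSP90B1, but C12orf73 was counted at only 22.4 to 27.1 CPM by mean.

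DNAJC3 (p58IPK), a DnaJ cochaperone of HSPA5 that also inhibits PERK, was counted at 61.6, 71.3 and 63.3 CPM in Plasmax-TE and at 75.2, 85.98 and 82.9 CPM in Plasmax-TE+Fe. These libraries did not overlap, but the difference did not pass (0.30 ± 0.19, adjusted p = 0.67). In EMEM the gene ranged from 52.3 to 86.8 CPM and in Plasmax from 64.6 to 98.6 CPM, and these ranges overlapped. By mean the order was Plasmax, Plasmax-TE+Fe, Plasmax-TE and EMEM, with 83.8 ± 17.4, 81.4 ± 5.54, 65.4 ± 5.19 and 65.3 ± 18.8 CPM. DNAJC3-DT, a divergent transcript beside the gene, is listed separately with 7 to 27 counts per library.

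SDF2L1 (ENSG00000128228) was counted at 34.3, 57.9 and 39.1 CPM in EMEM and at 60.8, 66.3 and 76.8 CPM in Plasmax. It stood at 77.0, 69.1 and 58.6 CPM in Plasmax-TE and at 53.4, 80.0 and 66.6 CPM in Plasmax-TE+Fe. The Plasmax and Plasmax-TE libraries all lay above EMEM, while 1 Plasmax-TE+Fe library fell below EMEM replicate 2. SDF2L1 rose by 0.58 ± 0.20 in Plasmax against EMEM (1.49-fold, interval 0.17 to 0.99, adjusted p = 0.042). The estimates were nearly as large for Plasmax-TE (0.58 ± 0.20, adjusted p = 0.10) and Plasmax-TE+Fe (0.53 ± 0.20, adjusted p = 0.095) against EMEM but did not pass. All 3 comparisons share the EMEM libraries. The call was a narrow one. It was lost when any 1 of EMEM replicates 1 and 3, Plasmax replicates 2 and 3 or Plasmax-TE replicate 2 was left out (adjusted p of 0.17, 0.15, 0.059, 0.16 and 0.053). Without EMEM replicate 2, the highest of its medium, SDF2L1 passed in both other comparisons with EMEM, at 0.83 ± 0.21 and 0.78 ± 0.21 (adjusted p = 0.037 and 0.029). Among the 3 Plasmax media its means lay between 66.7 and 68.3 CPM.

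**Figure D2:**
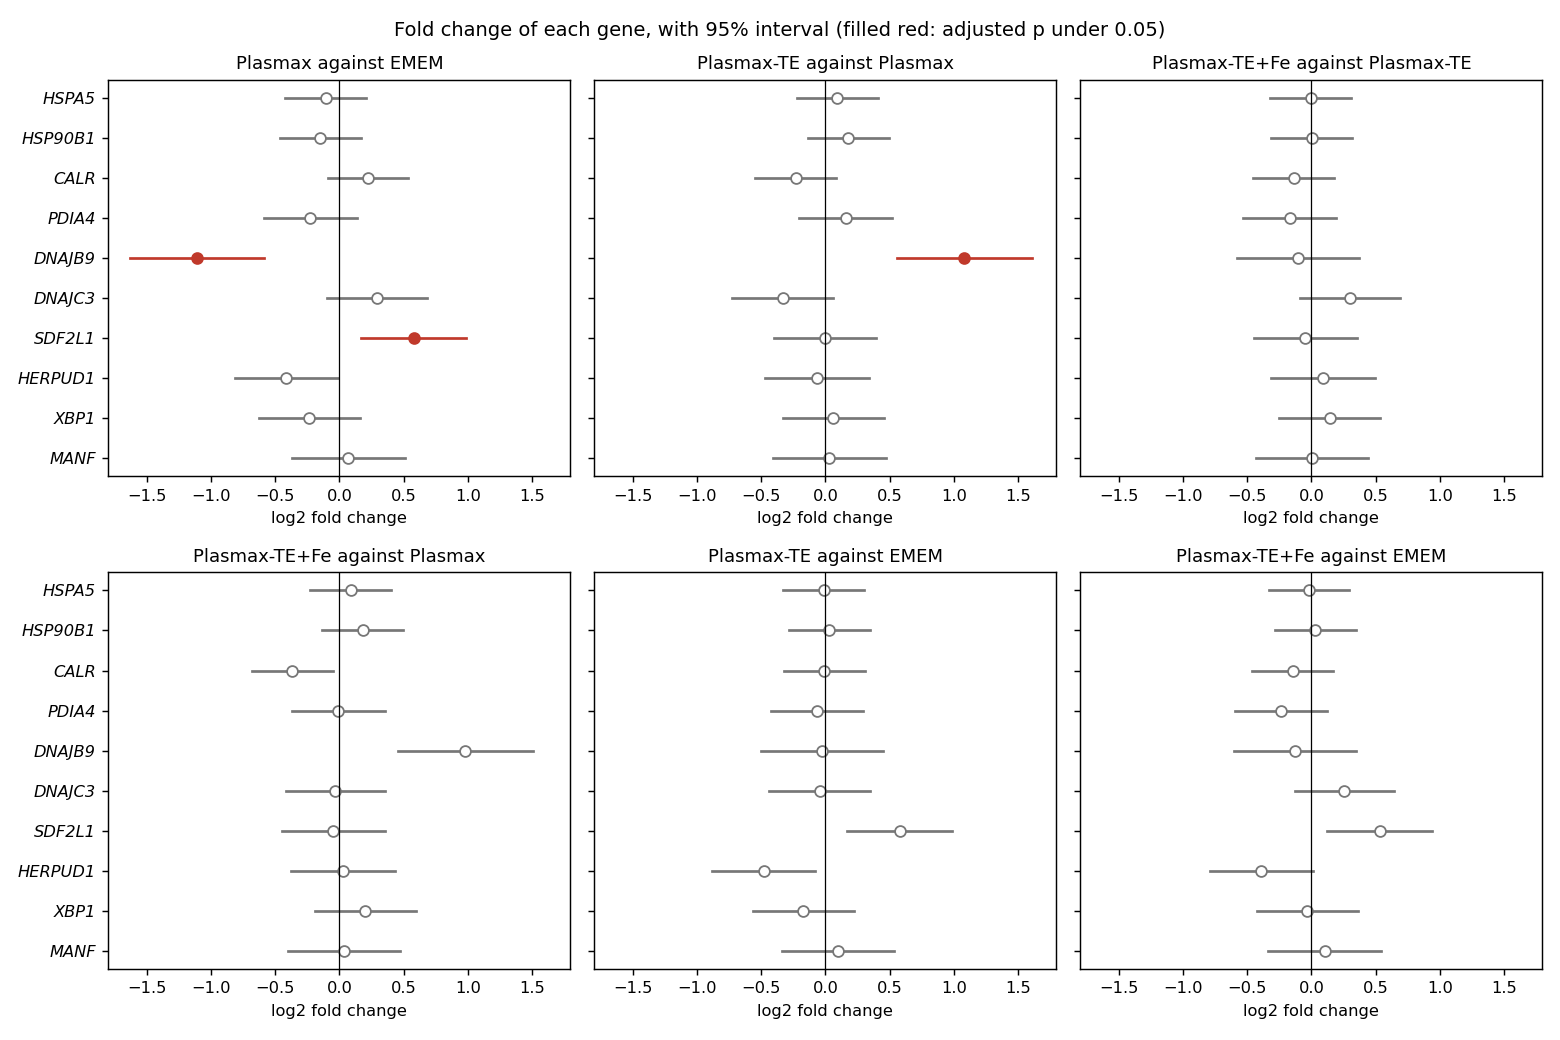
Log2 fold change (x axis) of each gene (y axis) in the 6 comparisons of media, with its 95% interval as a line, filled red where the adjusted p was under 0.05. DNAJB9 passes in Plasmax against EMEM (-1.11) and in Plasmax-TE against Plasmax (1.08), SDF2L1 in Plasmax against EMEM (0.58), and all other intervals are drawn in grey.

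HERPUD1 (ENSG00000051108), a membrane protein of the ER that helps assemble the degradation machinery, was counted at 249, 237 and 288 CPM in EMEM and at 220, 217 and 167 CPM in Plasmax. It stood at 161, 203 and 206 CPM in Plasmax-TE and at 232, 142 and 235 CPM in Plasmax-TE+Fe. All 9 libraries of the Plasmax media lay below all 3 EMEM libraries. The difference from EMEM was -0.42 ± 0.19 for Plasmax, -0.48 ± 0.19 for Plasmax-TE and -0.39 ± 0.19 for Plasmax-TE+Fe, and none passed (adjusted p = 0.13, 0.18 and 0.22). The lowest libraries of Plasmax-TE and Plasmax-TE+Fe were numbers 87 and 88. With these left out, the estimate for Plasmax against EMEM was unchanged at -0.42 but its SE fell to 0.12 and it passed (adjusted p = 0.016), although neither library belongs to these media, since all libraries share the estimate of the spread.

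XBP1, the transcription factor whose messenger RNA is spliced by IRE1, had means of 286 ± 37.6 CPM in EMEM, 251 ± 12.4 in Plasmax, 260 ± 47.0 in Plasmax-TE and 288 ± 62.2 in Plasmax-TE+Fe. Counts at the 3′ end do not tell its spliced from its unspliced form, so they do not report on IRE1 activity. No comparison passed, and the intervals lay between -0.63 and 0.60. MANF, a small protein of the ER lumen that is secreted on stress, had means between 106 and 118 CPM in all 4 media. EMEM replicate 3 was its lowest library (78.3 CPM) and EMEM replicate 2 its highest (140 CPM), so its spread within EMEM covered all other libraries. MANF did not pass in any comparison, with intervals between -0.43 and 0.54.

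Counted by comparison, 1 of the 10 genes fell and 1 rose in Plasmax against EMEM, where 11.5% of all genes tested fell and 9.90% rose (21.4% together). In Plasmax-TE against Plasmax 1 rose and 0 fell, where 5.61% rose and 5.63% fell (11.2% together). With 10 genes, 2 and 1 calls are near these backgrounds. In the 4 comparisons that remain, 0 of 10 passed with edgeR, DESeq2 or limma-voom. The background there was 0.258% for Plasmax-TE+Fe against Plasmax-TE and 1.20% for Plasmax-TE+Fe against Plasmax. It was 4.81% for Plasmax-TE and 9.65% for Plasmax-TE+Fe against EMEM. The number with an unadjusted p under 0.05 in edgeR was 0, 2, 2 and 1 in this order. Libraries did not overlap for 3 of 10 genes in Plasmax against EMEM (39.8% of all genes) and for 1 of 10 in Plasmax-TE against Plasmax (30.4%). In the 4 other comparisons, in the order above, this held for 1, 2, 2 and 1 of the 10, where it held for 13.4%, 18.4%, 25.3% and 28.8% of all genes. The median log2 fold change of the 10 was -0.13 in the first and 0.05 in the second, and that of all genes was -0.01 and 0.02. The median size regardless of sign was 0.23 and 0.13, against 0.35 and 0.30 over all genes.

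The spread over the 12 libraries differed among the 10. The SD of log2 CPM was 0.15 for HSPA5, which is lower than in all but 3.19% of the genes tested, and 0.18 to 0.21 for PDIA4, HSP90B1, CALR and XBP1, against a median of 0.33 over all genes. It was 0.36 for SDF2L1 and 0.50 for DNAJB9, at the 56.5th and 79.0th percentile. HSPA5 had 2126 to 4445 counts per library and DNAJB9 20 to 73, and the part of counting error in this difference was not tested.

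**Figure D3:**
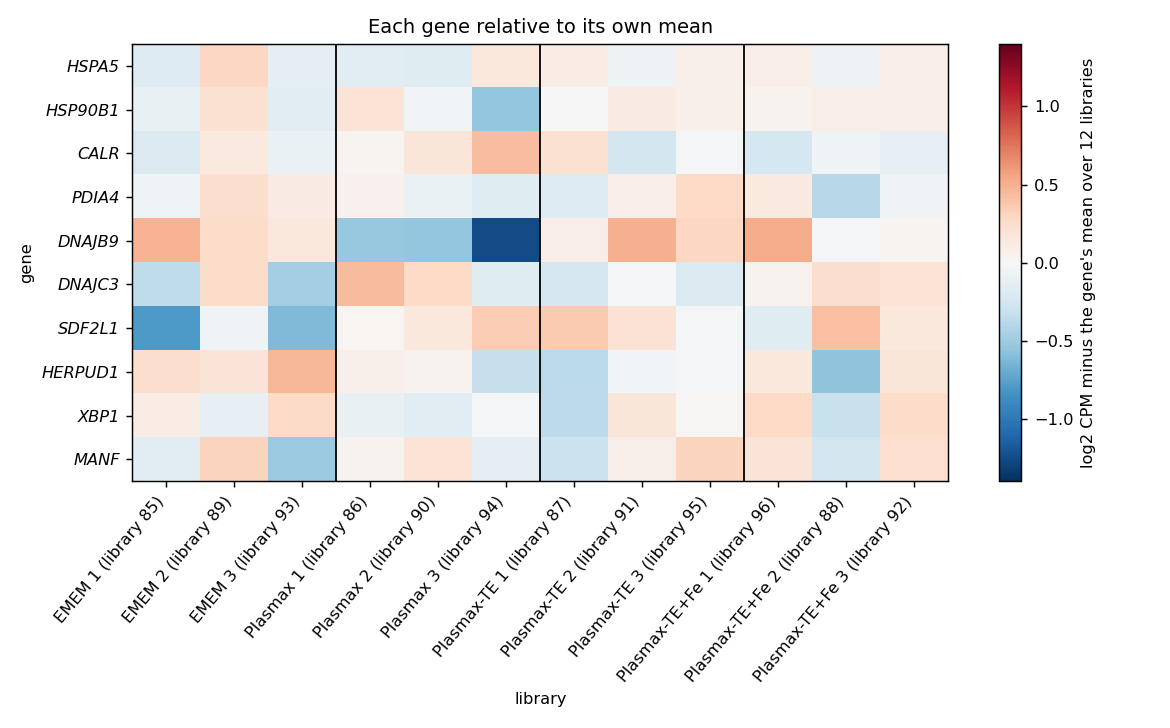
Log2 CPM of each gene (rows) in each library (columns, grouped by medium and named with its library number) minus the gene's own mean over the 12 libraries, red above and blue below. DNAJB9 is blue in the 3 Plasmax libraries, and HERPUD1, XBP1 and MANF are blue in libraries 87 and 88. SDF2L1 is blue in EMEM replicates 1 and 3, while EMEM replicate 2 lies close to its mean.

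A second pattern ran across libraries rather than media. In libraries 87 and 88, each set against the other 2 libraries of its own medium, 5 of the 10 genes were the lowest of their medium in both (PDIA4, DNAJB9, HERPUD1, XBP1 and MANF) and 2 the highest in both (CALR and SDF2L1). Over all genes tested 18.4% were lowest in both and 31.2% highest in both. XBP1 stood at 209 and 216 CPM in these libraries and at 271 to 327 CPM in the other 4 of the same media. MANF stood at 91.3 and 93.6 CPM there against 119 to 139 CPM, and PDIA4 at 178 and 154 CPM against 194 to 245 CPM. On the log2 scale the differences from the mean of the other 2 libraries were -0.35 and -0.72 for HERPUD1, -0.45 and -0.58 for XBP1 and -0.49 and -0.47 for MANF. HSPA5 did not share this, with 0.11 in one and -0.17 in the other. These libraries were picked out for standing apart in these data, so the values are a description without a test. With CPM scaled by TMM factors, a choice made after seeing the data, 6 of the 10 were lowest in both (HSP90B1 added) and 1 highest (SDF2L1), against 25.2% and 24.1% of all genes. Within EMEM, replicate 2 was the highest library for HSPA5, HSP90B1, CALR, PDIA4, DNAJC3, SDF2L1 and MANF, and the lowest for HERPUD1 and XBP1. DNAJC3 stood at 86.8 CPM there against 56.7 and 52.3 CPM. EMEM replicate 2 enters every comparison with EMEM, and the share of all genes with such a pattern was not counted.

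The 5 genes whose profile over the 12 libraries was most like that of HSPA5 were RANBP3, SORL1, MCM3, VAMP8 and CTBP1. The measure was the root mean square difference between log2 CPM profiles centred on each gene's mean, which was 0.10 to 0.12 for these 5. Among the 10458 other genes CALR ranked 408th, PDIA4 483rd and HSP90B1 1281st by this measure, followed by MANF at 1306 and XBP1 at 1911. DNAJC3 ranked 3153rd, SDF2L1 4205th, HERPUD1 4242nd and DNAJB9 8176th. None of the other 9 genes was among the nearest 5. HSPA5 itself varied little (SD of log2 CPM 0.15), so this measure places genes of little spread near it. A high rank therefore does not show that a gene moved together with HSPA5.

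The wider ER machinery was examined in 5 lists with 90 measured genes: other chaperones, disulfide and glycoprotein folding, ER-associated degradation, translocation and export, and the sensors and regulators of the response. In Plasmax against EMEM 7 of these 90 rose and 10 fell (7.78% and 11.1%), where 9.90% and 11.5% of all genes did so. In Plasmax-TE against Plasmax 1 rose and 4 fell (1.11% and 4.44% of the 90), where 5.61% and 5.63% of all genes did so. The shares of all genes in both comparisons apply also to the counts of each of the 5 lists below. Both comparisons share the Plasmax libraries, so opposite changes of a gene in them are not independent. In Plasmax-TE+Fe against Plasmax-TE 0 of 90 passed with edgeR (3 had an unadjusted p under 0.05), 1 passed with DESeq2 and 0 with limma-voom, where 0.258% of all genes passed with edgeR.

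Of 16 measured other chaperones and cochaperones 2 rose in Plasmax against EMEM and 14 did not pass, with a median log2 fold change of 0.11. DNAJC10 (ERdj5), a disulfide reductase that works with HSPA5, rose from 87.8 ± 8.53 to 185 ± 3.23 CPM (1.02 ± 0.20, adjusted p = 9.2e-04). SERPINH1 (HSP47), the collagen chaperone, rose by 0.71 ± 0.16 (adjusted p = 0.0027). DNAJC10 was also higher in Plasmax-TE+Fe than in EMEM (0.89 ± 0.20, adjusted p = 0.0060). In Plasmax-TE against Plasmax 1 of the 16 fell, DNAJB11 (ERdj3), a further cochaperone of HSPA5, by 0.59 ± 0.17 (adjusted p = 0.029).

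Of 16 measured genes of disulfide formation and glycoprotein folding 4 fell and 1 rose in Plasmax against EMEM, with a median of 0.03. PDIA5 fell by 1.14 ± 0.27 and TXNDC11 by 0.98 ± 0.18, both members of the disulfide isomerase family. MOGS, the glucosidase that trims the first glucose from N-glycans, fell by 0.83 ± 0.17, and P4HB, protein disulfide isomerase itself, by 0.57 ± 0.17. QSOX1, a sulfhydryl oxidase, rose by 0.65 ± 0.18. The adjusted p of these 5 lay between 4.4e-04 and 0.024, and TXNDC11 was the 1 gene of the list that also fell in Plasmax-TE+Fe against EMEM (-0.64 ± 0.17, adjusted p = 0.020).

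Of 20 measured genes of ER-associated degradation 2 rose and 2 fell in Plasmax against EMEM, with a median of -0.04. The ubiquitin ligase SYVN1 (HRD1) fell by 0.69 ± 0.17 and SELENOS, a selenoprotein that recruits the extraction machinery, by 0.73 ± 0.16. UFD1, a partner of the extracting ATPase VCP, rose by 0.95 ± 0.22 and the conjugating enzyme UBE2G2 by 0.52 ± 0.16 (adjusted p between 0.0027 and 0.029 for the 4). UFD1 was lower again in Plasmax-TE than in Plasmax (-0.74 ± 0.22, adjusted p = 0.037). HERPUD2, a relative of HERPUD1, was also lower there (-0.61 ± 0.19, adjusted p = 0.046), but had not risen in Plasmax against EMEM (-0.03 ± 0.18, adjusted p = 0.93).

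Of 25 measured genes of translocation and COPII export 1 rose and 2 fell in Plasmax against EMEM. The signal peptidase subunit SPCS3 rose by 0.74 ± 0.17, while SSR2, a subunit of the translocon-associated complex, fell by 0.63 ± 0.15 and SEC24D, a COPII coat protein, by 1.32 ± 0.41. SSR2 was higher again in Plasmax-TE than in Plasmax (0.57 ± 0.15, adjusted p = 0.017). SPCS3 was also higher in Plasmax-TE+Fe than in EMEM (0.74 ± 0.17, adjusted p = 0.00835). Of 13 measured sensors and regulators 1 rose and 2 fell in Plasmax against EMEM, with a median of -0.26. CREB3L3, a liver relative of ATF6, fell from 57.2 ± 9.61 to 21.2 ± 7.69 CPM (-1.45 ± 0.29, adjusted p = 0.0012) and CREB3L2 by 0.72 ± 0.17. TMBIM6, an inhibitor of cell death in the ER membrane, rose by 0.56 ± 0.17 and was lower again in Plasmax-TE (-0.60 ± 0.17 against Plasmax, adjusted p = 0.025). WFS1, a membrane protein of the ER that the response induces, was lower than in EMEM in Plasmax-TE (-0.77 ± 0.17) and Plasmax-TE+Fe (-0.74 ± 0.17), with adjusted p = 0.010 and 0.0075.

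**Figure D4:**
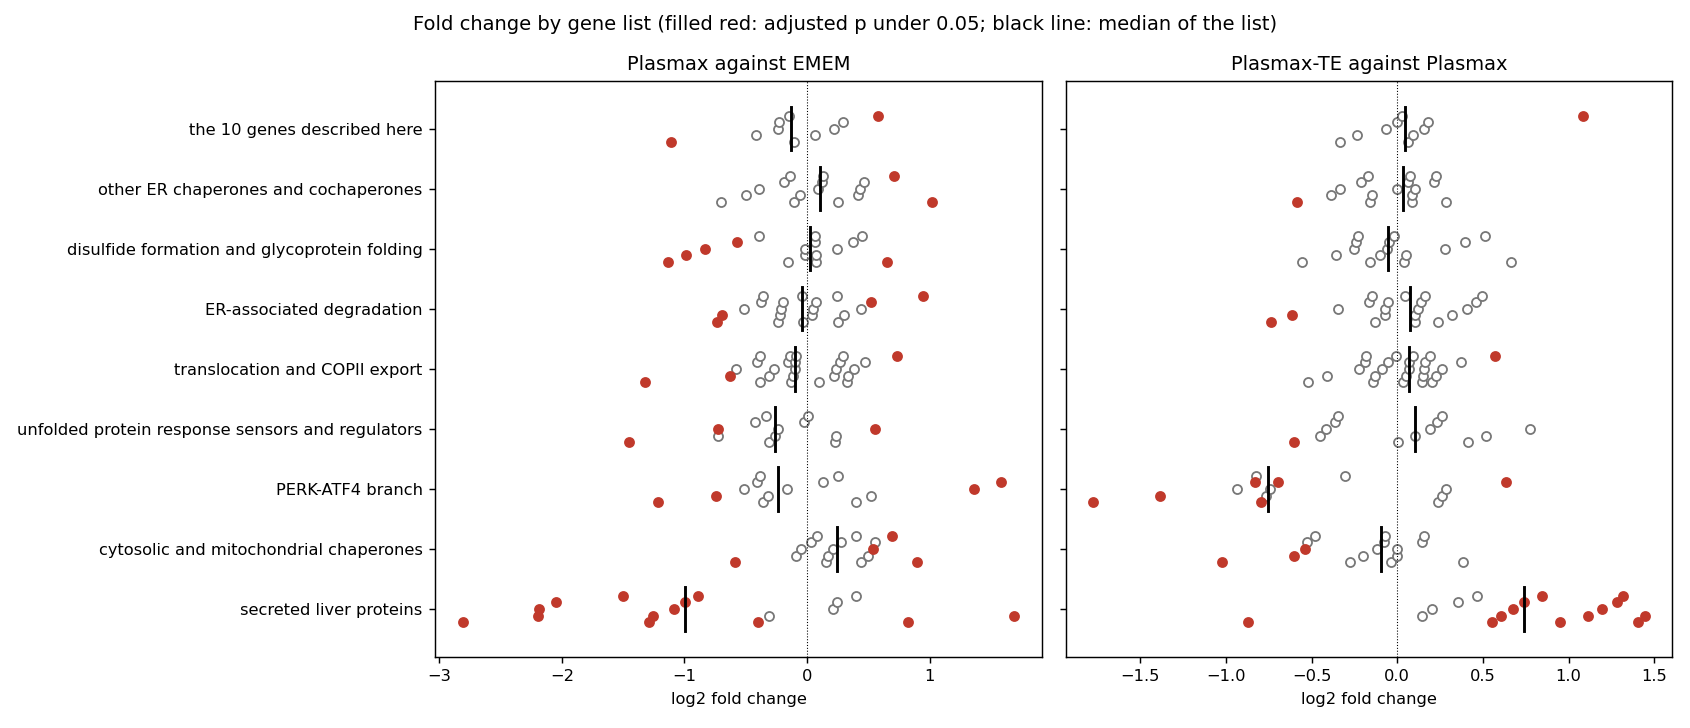
Log2 fold change (x axis, scaled separately in each panel) of every measured gene of each list (rows) in Plasmax against EMEM (left) and Plasmax-TE against Plasmax (right), filled red where the adjusted p was under 0.05, with the median of the list as a black line. The medians of the ER lists lie between -0.26 and 0.11 on the left, and those of the secreted liver proteins at -0.99 on the left and 0.74 on the right.

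Next to these lists stand 3 others for comparison. Of 14 measured genes of the PERK-ATF4 branch 5 fell and 1 rose in Plasmax-TE against Plasmax, with a median of -0.75, among them ATF3 (-1.77 ± 0.34), DDIT4 (-1.38 ± 0.27) and SESN2 (-0.80 ± 0.22), while CEBPB rose by 0.63 ± 0.20. Of all genes 5.63% fell and 5.61% rose there. The estimate was above 0 for 4 of the 14, among them ATF4 itself (0.26 ± 0.16) and DDIT3 (0.24 ± 0.34), and these 2 did not pass (adjusted p = 0.32 and 0.70 in edgeR). Whether PERK activity differed was not tested. In Plasmax-TE against EMEM 6 of the 14 fell and 0 rose, with a median of -0.70, where 4.81% of all genes passed in either direction. In Plasmax against EMEM 2 fell and 2 rose, with DDIT3 (CHOP), the transcription factor that promotes death under ER stress, at -1.21 ± 0.32 and ASNS, asparagine synthetase, at 1.36 ± 0.40. Of 16 cytosolic and mitochondrial chaperones 3 rose and 1 fell in Plasmax against EMEM. Of all genes 9.90% rose and 11.5% fell in this comparison. HSPH1 (0.89 ± 0.22), HSP90AA1 (0.69 ± 0.16) and HSPA4 (0.54 ± 0.15), which serve cytosolic folding, rose there, HSPB1, a small heat shock protein, fell (-0.59 ± 0.20), and the same 3 fell in Plasmax-TE against Plasmax, by 1.02 ± 0.22, 0.54 ± 0.16 and 0.60 ± 0.15. The 2 comparisons share the Plasmax libraries.

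Of 17 secreted liver proteins, which are cargo of the ER, 11 fell and 2 rose in Plasmax against EMEM and 12 rose and 1 fell in Plasmax-TE against Plasmax, with medians of -0.99 and 0.74. Of all genes 11.5% fell and 9.90% rose in the first comparison, and 5.61% rose and 5.63% fell in the second. Both comparisons share the Plasmax libraries and are not independent. ALB, albumin, was at -2.20 ± 0.11 and 1.41 ± 0.11 in these comparisons, and AFP, the fetal counterpart of albumin, at -2.81 ± 0.15 and 1.44 ± 0.14. TF, transferrin, was at -2.05 ± 0.16 and 0.84 ± 0.16. TTR, the thyroxine carrier transthyretin, was at -2.19 ± 0.16 and 0.35 ± 0.15, of which the second did not pass (adjusted p = 0.14). HP, haptoglobin, rose in both, by 1.69 ± 0.32 and 1.11 ± 0.27, and SERPINA1, a protease inhibitor, was at 0.82 ± 0.27 and -0.87 ± 0.27.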

How the data were processed

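Messenger RNA of HepG2 cells was counted in 12 QuantSeq 3′ libraries, 3 per medium. Tools listed by the submitters' processing notes are STAR 2.7.5b, featureCounts 1.6.3, cutadapt 1.16, FastQC 0.72 and limma 3.40.6, with the build hg19. Annotation and strand setting are not given. The values the authors deposited are raw counts per gene without normalization. Of 10994 entries 54 repeated an identifier with identical counts and were dropped. No gene was under 4.04 CPM in its third-highest library, so the table had been filtered upstream.

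Counts were fitted in R 4.3.3 with edgeR 4.0.16 in 1 quasi-likelihood model of the 4 media (8 residual degrees of freedom), after filterByExpr at its defaults (minimum count 10, total 15; 481 genes removed, 10459 kept) and TMM scaling (factors 0.964 to 1.06). Tests were two-sided, and a gene passed at a Benjamini-Hochberg adjusted p under 0.05 over all genes tested. An exact permutation test of 3 against 3 libraries cannot go below p = 0.1. The SE was taken as the size of the log2 fold change over the root of F, and 95% intervals use the model's degrees of freedom. CPM are of the total count. The script was checked on simulated data. Alternatives used DESeq2 1.42.0, limma-voom (limma 3.58.1), other scalings, filters, blocks and sets of libraries. List genes were named mostly from the 4 with the lowest p among those that passed per list and comparison. Not all of these are named, APOH and SERPINC1 among the omitted. P4HB, CEBPB, HP and SERPINA1 fall outside the 4 in at least 1 comparison and were added after their values were seen. TF and TTR are given in both comparisons, though in Plasmax-TE against Plasmax TF was not among the 4 and TTR did not pass. The members and lists were chosen with earlier results of these data known. Promoters were matched by symbol in RefSeq windows of GRCh38.p14, a build other than that of the counts.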

Additional observations from a re-analysis of the deposited data

How the results depend on the processing

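Across 22 alternatives the sign of the 3 member results that passed did not change. The number of the 10 genes that passed in Plasmax against EMEM (2) ran from 1 to 3 with single libraries left out, the 3 being with HERPUD1 added without Plasmax-TE+Fe replicate 2, and was 3 with libraries 87 and 88 left out and with only the 6 libraries compared, and that in Plasmax-TE against Plasmax stayed at 1. In Plasmax-TE+Fe against Plasmax it was 0, and 1 (DNAJB9) with the library-number block (3 runs of 4 consecutive numbers) and with libraries 87 and 88 left out, and 0 to 1 with single libraries left out, the 1 being without Plasmax-TE replicate 1. In Plasmax-TE and in Plasmax-TE+Fe against EMEM it was 0 to 1 with single libraries left out, the 1 being SDF2L1 without EMEM replicate 2. HERPUD1 passed in Plasmax against EMEM in 3 of 22 alternatives. The number of genes that differed among the 4 media was 1879, 2835 with the library-number block, and 1275 to 2465 with single libraries left out. Counts of genes behind the backgrounds moved by over 1.5 times in places: 1176 genes for Plasmax-TE against Plasmax became 477 without Plasmax replicate 2, 27 for iron added became 0 to 229 with single libraries left out, 126 for Plasmax-TE+Fe against Plasmax became 31 to 170, 503 for Plasmax-TE against EMEM became 259 to 678, and 1009 for Plasmax-TE+Fe against EMEM became 606 to 1224. These ranges are all with single libraries left out. In the other alternatives the counts ran from 1002 to 1859, 0 to 152, 77 to 372, 440 to 829 and 926 to 1569 in the same order.

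With the replicate block, which uses the replicate numbers of the labels, 2, 1, 0, 0, 0 and 0 of the 10 genes passed in the 6 comparisons, as without it, and 1662 genes differed among the media. Of the pairs of libraries with the same replicate number, 4 of 18 had a correlation over 0.1 (range -0.41 to 0.17), and 6 of 12 libraries were closest to their own number. For the runs of library numbers 9 of 18 pairs did (0.02 to 0.51), and 12 of 12 were closest to their own run, a hint from the data and not the design. Both numberings coincide in EMEM, Plasmax and Plasmax-TE and differ only in Plasmax-TE+Fe. Pairs without a Plasmax-TE+Fe library therefore enter both counts. RLE factors and library size alone moved the median of all genes by at most 0.05 on the log2 scale. DNAJB9 had 20 to 28 counts per Plasmax library, which limits the precision of its values most.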

Other observations

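The 5 genes whose profile over the 12 libraries was nearest to that of DNAJB9 were COA1, CHPT1, RPS7, ANLN and NARS2, with root mean square differences of 0.24 to 0.25 on the log2 scale. DNAJB9 was chosen for this after its values were seen. HSP90B1, at rank 718 of 10458, was the nearest of the other 9 genes and SDF2L1, at 8396, the farthest.

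Of the genes in the wider lists, CANX, CRELD2, PDIA6 and ERO1B held the ERSE motif in their promoter windows. The lists of ER-associated degradation (17 genes with a window), translocation and export (21) and sensors and regulators (15) held it in 0 genes.

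In libraries 87 and 88, 12 of 25 genes of translocation and export and 9 of 16 cytosolic and mitochondrial chaperones were the lowest of their medium in both, against 18.4% of all genes tested, while 3 of 20 genes of ER-associated degradation and 1 of 13 sensors and regulators were. The highest in both were 11 of 17 secreted liver proteins and 7 of 13 sensors and regulators, against 31.2% of all genes.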
